A study of Mus musculus with 4 samples.

Results

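The genes described here carry the name of another gene followed by os, os1, os2 or os3, the mouse naming for a transcript read from the opposite strand of that gene. They were chosen by 2 criteria. The stem of the name had to be the name of another row of the deposited gene table, and the raw counts of the 4 libraries had to sum to 10 or more. Epb41l4aos was left out. The criteria left 61 opposite-strand genes with 60 paired genes, out of 34745 gene rows, of which 14765 had a summed count of 10 or more. A further 187 rows of this name form were at 0 in every library and 41 had 1 to 9 summed counts. Just below the minimum lay Chrna1os, Fmr1os and Rsf1os2 with 8 counts each, and just above it lay Med9os with 10 and Atcayos and Lrp8os3 with 11 each. The summed count is the measured value in these criteria, and no test is made on it.

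The libraries came from T helper 17 (Th17) cultures, in which naive CD4+ T cells from the spleens of C57BL/6 mice were held for 3 days under Th17 polarizing conditions. The wild-type (WT) group had 2 libraries, replicates 13 and 15, and the group of genotype Setd2-CD4 cre had 2, replicates 22 and 24. Setd2 encodes the enzyme that trimethylates lysine 36 of histone H3 over transcribed genes. Cre driven from Cd4 sequences acts in developing T cells, including precursors of CD8 T cells, and which exons were removed is not given in the sources used here. For WT 15 the title was followed, since its cell type label starts with 14. Whether each library had its own animal or culture is not given in the labels, so p-values cover only the spread seen among these 4 libraries, and that spread may be technical.

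Many mammalian promoters are read in both directions, and the antisense RNA that results is often short-lived, because the nuclear exosome degrades it after early termination. Other antisense transcripts start inside a gene or beyond its end. Histone H3 lysine 36 methylation over gene bodies is known, chiefly from yeast, to limit transcription that starts inside genes, and some opposite-strand genes are ordinary coding genes that lie beside the gene they were named for.

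In GENCODE M21 (GRCm38) all 61 opposite-strand genes lay on the strand opposite to the paired gene. The annotation classed 45 as antisense, 4 as lincRNA (intergenic long noncoding RNA), 4 as processed transcript, 2 as bidirectional promoter RNA and 6 as protein coding. In 13 pairs the genes ran apart from separate starts (divergent), and in 24 they overlapped at their starts, so 37 pairs stood head to head. A further 14 opposite-strand genes lay inside the span of the paired gene, 5 overlapped its end, 3 ran towards it without touching and 2 spanned it. Counted over all annotated transcripts, 43 of the 61 started within 1000 bases of a start of the paired gene. Exons of the 2 genes overlapped in 39 pairs. How the authors assigned reads to strands is not given in the sources used here, and without strand the reads of overlapping exons cannot be told apart.

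The sequences at 4 starts show these arrangements, for pairs in which both genes passed the test described below and for the paired gene of Mypopos. Each is a RefSeq promoter window of GRCm38.p6, from 250 bases before to 50 bases after the annotated start, written 5′ to 3′ on the strand of the named gene. Capitals run from the RefSeq start of the named gene to the GENCODE start of its partner, and Mypop has none because Mypopos starts outside the window. The windows are chr11:103344503-103344802 (plus strand) for Arhgap27os3, chr11:86201144-86201443 (minus strand) for Brip1, chr10:94688564-94688863 (minus strand) for Cep83os and chr7:18990995-18991294 (plus strand) for Mypop.
Arhgap27os3: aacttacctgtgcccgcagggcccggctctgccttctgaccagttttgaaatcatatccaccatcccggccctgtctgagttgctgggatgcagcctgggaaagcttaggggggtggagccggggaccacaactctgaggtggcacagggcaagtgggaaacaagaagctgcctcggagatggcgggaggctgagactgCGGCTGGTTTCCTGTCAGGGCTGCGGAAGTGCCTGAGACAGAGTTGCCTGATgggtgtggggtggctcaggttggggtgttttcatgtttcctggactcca
Brip1: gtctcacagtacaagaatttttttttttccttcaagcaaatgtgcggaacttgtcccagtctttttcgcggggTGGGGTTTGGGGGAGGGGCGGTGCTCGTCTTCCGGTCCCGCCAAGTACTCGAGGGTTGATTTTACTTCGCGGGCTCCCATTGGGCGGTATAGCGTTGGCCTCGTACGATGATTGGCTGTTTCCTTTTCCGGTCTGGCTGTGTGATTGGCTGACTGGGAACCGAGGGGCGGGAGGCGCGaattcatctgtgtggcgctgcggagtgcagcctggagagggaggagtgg
Cep83os: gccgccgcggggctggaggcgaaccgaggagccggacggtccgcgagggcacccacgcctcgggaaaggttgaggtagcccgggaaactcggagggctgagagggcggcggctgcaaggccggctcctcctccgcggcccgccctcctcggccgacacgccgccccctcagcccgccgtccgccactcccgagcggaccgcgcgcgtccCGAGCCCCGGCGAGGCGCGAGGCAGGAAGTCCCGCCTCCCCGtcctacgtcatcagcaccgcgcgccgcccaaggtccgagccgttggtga
Mypop: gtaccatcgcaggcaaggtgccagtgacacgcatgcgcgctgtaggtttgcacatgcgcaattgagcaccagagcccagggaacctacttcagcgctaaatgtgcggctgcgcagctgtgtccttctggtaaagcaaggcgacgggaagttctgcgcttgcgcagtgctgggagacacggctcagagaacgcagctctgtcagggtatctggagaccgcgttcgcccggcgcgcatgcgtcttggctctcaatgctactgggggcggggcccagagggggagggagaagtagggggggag

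The Brip1 window holds the start of Brip1os 177 bases upstream of that of Brip1. The Arhgap27os3 window holds an internal start of Arhgap27, 51 bases upstream of the start of Arhgap27os3 on that gene's own strand. The Cep83os window held 46 CG dinucleotides, the Mypop window 22, the Brip1 window 21 and the Arhgap27os3 window 8, where the median over all 32851 windows of the table was 7. On either strand, CCAAT occurred 3 times in the Brip1 window and in 37.4% of all windows. GGGCGG occurred 3 times in the Brip1 window, 4 times in the Cep83os window and once in the Mypop window, and in 35.7% of all windows. One CCAAT match of the Brip1 window shared bases with a GGGCGG match. TATAAA occurred in none of the 4 windows and in 13.6% of all. RefSeq windows matched 37 of the opposite-strand genes and 48 of the paired genes. Mypopos, Brip1os, Ppp1r3fos and Foxd2os had no entry.

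Libraries held 11007343 to 12518415 counts over 15882 to 16307 genes. Levels are given as CPM, counts scaled by library total and TMM factor. A library with no count for a gene could still hold up to 3 counts of it, or 0.228 to 0.292 CPM, a limit for counting error alone. Setd2 stood at 184 and 176 CPM in the WT libraries, against 144 and 153 CPM in the Setd2-CD4 cre libraries, and its difference did not pass the test (log2 fold change -0.28, SE 0.10, edgeR adjusted p = 0.0748). The T cell markers Cd3d, Cd3e, Cd3g, Cd4 and Cd28 and the 8 Th17 markers were detected in the libraries, with summed levels of 2285 to 2624 CPM and 763 to 1694 CPM. Of the T cell markers 1 rose and 3 fell, and of the Th17 markers 5 rose and none fell. Markers of B cells differed between the genotypes. Their 14 genes summed to 270 and 230 CPM in WT and to 809 and 567 CPM in Setd2-CD4 cre, and 12 rose, none fell and none was at 0. The summed levels were 127 to 154 CPM in WT and 159 to 277 CPM in Setd2-CD4 cre for 8 markers of CD8 T and NK cells, 23.3 to 32.7 CPM over the libraries for 7 myeloid markers and at most 0.915 CPM for 3 erythroid markers. Of 6 CD8 T and NK cell markers tested, 2 rose (Klrd1 and Klre1) and none fell. The myeloid markers went both ways. Of 5 tested, 1 rose (Flt3) and none fell, but 4 of the 7 had both Setd2-CD4 cre libraries below both WT libraries. Of all genes tested, 14.5% were called lower and 16.2% higher. In bulk RNA, fewer cells of a type and less RNA per cell cannot be told apart, and the part of the B cell markers in the results below was not tested.

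Opposite-strand genes lay lower in Setd2-CD4 cre cultures more often than they lay higher, while the genes they are paired with showed no such lean. Of the 61, 30 (49.2%) had both Setd2-CD4 cre libraries below both WT libraries in CPM, against 34.5% of all rows with a summed count of 10 or more and 37.4% of rows within the count range of the 61. Only 8 (13.1%) had both above, against 33.5% and 28.2%, and 23 overlapped. Other noncoding classes lay nearer to the 61. Of 296 further genes of the antisense class with 10 or more counts, 43.6% lay below and 12.8% above, and of 322 lincRNA genes outside the 61, 46.0% and 16.5%. Of the 60 paired genes, 22 lay below, 19 above and 19 overlapped. With every gene kept, the median log2 fold change of the 61 was -0.46 (44 below 0 and 17 above), beside -0.0093 for all rows with 10 or more counts and -0.092 for the 11328 rows within the count range of the 61. That range reaches the 3383 counts of Brip1os, so its rows are not matched to the 61 in level.

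The counts were tested with edgeR's quasi-likelihood test across 12927 genes, with a threshold of 0.05 on the Benjamini-Hochberg adjusted p. Of the 61 opposite-strand genes, 41 had enough counts to be tested. Of these, 9 were called lower, Mypopos included (22.0%, where 14.5% of all genes tested were called lower) and 1 was called higher (2.44%, where the share of all genes was 16.2%). The filter on low counts can keep a gene through the group in which it is high, so these shares describe the 41 and not the whole set. The other 31 did not pass, with log2 fold changes of -1.87 to 0.63, 25 of them below 0. Of 57 paired genes tested, 10 were lower (17.5%) and 14 higher (24.6%), with a median log2 fold change of 0.0031. With library totals in place of TMM factors this split became 17 lower and 8 higher, and with upper-quartile factors 16 lower and 10 higher.

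Set against all genes under other settings, the count of opposite-strand genes called lower moved between 5 and 17, and 1 was called higher under each setting of this paragraph. With upper-quartile factors 12 of 41 were lower, where 20.2% of all genes tested were lower and 12.1% higher. With library totals 13 were lower, against 22.3% lower and 10.9% higher of all. With RLE factors 9 were lower (14.0% and 16.6% of all), as with limma-voom (14.7% and 16.2%). On log2(FPKM + 1) 17 were lower (21.2% and 9.8%) and on log2(FPKM + 0.1) 16 were (20.7% and 9.82%). Of the 61 genes fitted, 12 were lower without a filter on low counts (11.2% and 12.3% of all) and 7 with DESeq2 (10.1% and 13.5%). Leaving out WT 13 gave 7 of 45 (5.5% and 6.88% of all), and leaving out WT 15 gave 5 of 45 (4.24% and 5.4%). Leaving out Setd2-CD4 cre 22 gave 11 of 44 (17.3% and 19.7%), and leaving out Setd2-CD4 cre 24 gave 12 of 44 (21.6% and 22.8%). The 10 lower and 14 higher paired genes became 4 and 6 without WT 13, and 3 and 7 without WT 15.

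**Figure D1:**
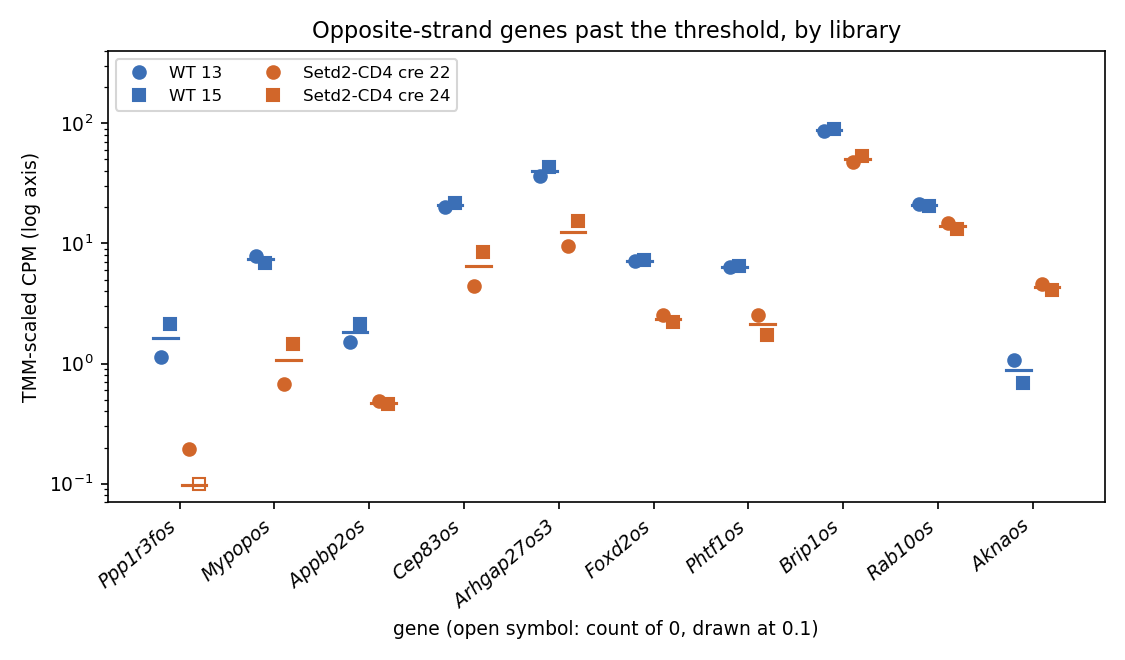
TMM-scaled CPM (log axis) of the 10 opposite-strand genes past the threshold, 1 symbol per library and a bar at the mean of each genotype. WT libraries lie above Setd2-CD4 cre libraries for 9 genes and below them for Aknaos, and the open symbol marks the 0 counts of Ppp1r3fos in Setd2-CD4 cre 24.

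Mypopos had the largest difference from its paired gene among pairs whose opposite-strand gene averaged at least 1 CPM. Mypopos (ENSMUSG00000086533, chromosome 7, 18993234 to 19001222, minus strand) lies inside Mypop, which encodes a Myb-related repressor that binds profilin, and starts 9253 bases from the nearest Mypop start. It was known to fall when these genes were gathered, so its values are given as a description. Its counts were 103 and 90 in the WT libraries, against 7 and 16 in the Setd2-CD4 cre libraries. In CPM it stood at 7.85 and 6.85 against 0.682 and 1.47, a log2 fold change of -2.75 that became -3.41 without Setd2-CD4 cre 24. The genotypes were far apart, and the lowest WT library lay above the highest Setd2-CD4 cre library. Mypop stood at 2.44 and 2.13 CPM in the WT libraries, against 2.53 and 2.02 CPM in the Setd2-CD4 cre libraries (log2 fold change -0.01, SE 0.38, adjusted p by edgeR = 0.987). The genotypes overlapped for Mypop. Exons of Mypop cover 4.04% of the exon bases of Mypopos.

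Of the 26 tested genes that stand head to head with the outermost start of their partner, 6 fell. Of the 15 others tested, 3 did, where 14.5% of all genes tested were called lower. Brip1os, which had the highest mean CPM of the 61 (not scaled by length), runs away from Brip1, which encodes a helicase of the Fanconi anemia repair pathway. Brip1os (ENSMUSG00000085208, chromosome 11, 86201370 to 86304443, plus strand) stood at 86.3 and 89.7 CPM in the WT libraries, against 47.7 and 53.5 CPM in the Setd2-CD4 cre libraries, and it fell by 0.80 on the log2 scale (SE 0.12, edgeR adjusted p = 0.00332). Brip1 stood at 65.3 and 67.2 CPM in the WT libraries, against 37.6 and 50.4 CPM in the Setd2-CD4 cre libraries, and it fell as well (-0.59, SE 0.16, edgeR adjusted p = 0.0263). Both genes of this pair were therefore lower, and neither showed overlap between genotypes. Brip1 lost its call without WT 13 (adjusted p = 0.0954) and without WT 15 (0.130). Brip1os also spans Ints2 and part of Med13, coding genes on the other strand. Ints2 did not pass (0.04, adjusted p = 0.823), and Med13 rose (0.40, adjusted p = 0.0484).

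Cep83os and Cep83 moved in opposite directions. Cep83 encodes a protein of the distal appendages that anchor the mother centriole to the membrane, and Cep83os is annotated as an RNA of its bidirectional promoter. Cep83os (ENSMUSG00000097164, chromosome 10, 94671025 to 94688576, minus strand) stood at 19.98 and 21.8 CPM in the WT libraries, against 4.38 and 8.53 CPM in the Setd2-CD4 cre libraries (-1.69, SE 0.29, edgeR adjusted p = 0.00635). Cep83 stood at 76.0 and 74.6 CPM in the WT libraries, against 120 and 102 CPM in the Setd2-CD4 cre libraries, and it rose (0.56, SE 0.12, edgeR adjusted p = 0.0128). It was the only pair of the 61 in which the opposite-strand gene fell and the paired gene rose past the threshold. The 2 genes share no annotated exon bases. The call of Cep83 was lost without WT 13 (adjusted p = 0.0937) and without WT 15 (0.116), and that of Cep83os was not.

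Foxd2os (ENSMUSG00000085399, chromosome 4, 114909257 to 114921967, plus strand), beside the forkhead factor gene Foxd2, had 7.09 and 7.23 CPM in the WT libraries, against 2.53 and 2.20 CPM in the Setd2-CD4 cre libraries (-1.59, SE 0.29, edgeR adjusted p = 0.00659). Foxd2 itself was low, with 12 and 13 counts in the WT libraries, against 3 and 1 in the Setd2-CD4 cre libraries (-2.27, SE 0.76, edgeR adjusted p = 0.0540). It passed with upper-quartile factors (adjusted p = 0.0446), library totals (0.0415), limma-voom (0.0491) and limma-trend on log2(FPKM + 1) (0.0231) or log2(FPKM + 0.1) (0.0219). Phtf1os (ENSMUSG00000089998, chromosome 3, 103964536 to 103968581, minus strand) had 6.33 and 6.47 CPM in the WT libraries, against 2.53 and 1.74 CPM in the Setd2-CD4 cre libraries (-1.58, SE 0.32, edgeR adjusted p = 0.010). Its partner Phtf1, the gene of an endoplasmic reticulum membrane protein, gave 53.1 and 55.1 CPM against 53.6 and 57.3 CPM (0.04, SE 0.12, edgeR adjusted p = 0.841). The sign of that value was negative with upper-quartile factors (-0.08) and library totals (-0.12). Phtf1os lost its call without WT 15 (adjusted p = 0.0577). These 2 opposite-strand genes showed no overlap between genotypes, and Foxd2 did not either.

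Ppp1r3fos, listed in RefSeq under the symbol Flicr, is a noncoding RNA known in mice from regulatory T cells, where it lowers expression of the lineage factor gene Foxp3. Ppp1r3fos (ENSMUSG00000039545, chromosome X, 7573600 to 7581027, plus strand) had 15 and 28 counts in the WT libraries, against 2 and 0 in the Setd2-CD4 cre libraries. The WT level was 17.3 times that of Setd2-CD4 cre, with a 95% counting interval of 4.52 to 148 (exact binomial, counting error only). The gene fell by edgeR's test (-3.97, SE 0.93, adjusted p = 0.0164). The call was lost without WT 15 (-3.45, adjusted p = 0.144). The fold change was -3.00 without Setd2-CD4 cre 24, where it rests on 2 counts, and -0.47 on the log2(FPKM + 1) scale. Without Setd2-CD4 cre 22 the remaining library of that genotype is at 0, and no fold is given. Foxp3 overlaps it by 7384 bases on the same strand, so their reads may have been split. Foxp3 stood at 17.9 and 17.6 CPM in the WT libraries, against 0.974 and 11.8 CPM in the Setd2-CD4 cre libraries (-1.46, SE 1.12, edgeR adjusted p = 0.409). The named partner, Ppp1r3f, encodes a subunit that directs protein phosphatase 1 to glycogen. It stood at 10.2 and 9.97 CPM in the WT libraries, against 3.99 and 4.95 CPM in the Setd2-CD4 cre libraries, and it fell too (-1.17, SE 0.24, edgeR adjusted p = 0.0107). Its call was lost without WT 13 (adjusted p = 0.0687) and without WT 15 (0.0671).

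Appbp2os (ENSMUSG00000085628, chromosome 11, 85234775 to 85238304, plus strand), which overlaps the start of Appbp2, a gene for a protein that binds the amyloid precursor protein, had 20 and 28 counts in the WT libraries, against 5 and 5 in the Setd2-CD4 cre libraries (-1.93, SE 0.53, edgeR adjusted p = 0.0294). This was the weakest of the head-to-head calls. It was lost without any 1 of the libraries (adjusted p = 0.0537 to 0.280) and with DESeq2 (0.149). Appbp2 stood at 76.2 and 78.5 CPM in the WT libraries, against 86.9 and 81.7 CPM in the Setd2-CD4 cre libraries (0.12, SE 0.11, edgeR adjusted p = 0.418), a value that was -0.03 with library totals. Exons of Appbp2 cover 34.5% of those of Appbp2os.

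Arhgap27os3 lies inside Arhgap27, 51 bases from one of its internal starts, and shares no exon bases with it. Arhgap27os3 (ENSMUSG00000085887, chromosome 11, 103344753 to 103350124, plus strand) stood at 36.4 and 42.9 CPM in the WT libraries, against 9.45 and 15.2 CPM in the Setd2-CD4 cre libraries (-1.68, SE 0.23, edgeR adjusted p = 0.00288). Arhgap27 stood at 167 and 190 CPM in the WT libraries, against 124 and 127 CPM in the Setd2-CD4 cre libraries (-0.51, SE 0.11, edgeR adjusted p = 0.0128). Both fell, and the call of Arhgap27 was lost without WT 15 (adjusted p = 0.170). A second opposite-strand gene of the same locus, Arhgap27os2, had 32 and 16 counts in the WT libraries, against 6 and 7 in the Setd2-CD4 cre libraries, and it did not pass (-1.56, SE 0.57, edgeR adjusted p = 0.0698). Exons of Arhgap27 cover 75.9% of those of Arhgap27os2.

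Rab10os (ENSMUSG00000079179, chromosome 12, 3235504 to 3250377, plus strand) overlaps the end of Rab10, the gene of a small GTPase of membrane traffic. It stood at 21.04 and 20.3 CPM in the WT libraries, against 14.8 and 13.1 CPM in the Setd2-CD4 cre libraries (-0.57, SE 0.17, edgeR adjusted p = 0.0365). The groups did not overlap, but the call was lost without WT 13 (adjusted p = 0.211), without WT 15 (0.184) and with DESeq2 (0.128). Rab10 stood at 151 and 165 CPM in the WT libraries, against 152 and 133 CPM in the Setd2-CD4 cre libraries (-0.15, SE 0.12, edgeR adjusted p = 0.343).

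Aknaos was the 1 opposite-strand gene called higher. It lies inside Akna, whose product carries an AT-hook and organizes microtubules at the centrosome, and starts 155 bases upstream of an internal Akna start. Aknaos (ENSMUSG00000086953, chromosome 4, 63381358 to 63394018, plus strand) had 14 and 9 counts in the WT libraries, against 47 and 45 in the Setd2-CD4 cre libraries. In CPM this was 1.07 and 0.685 against 4.58 and 4.13, a 4.92-fold rise (log2 fold change 2.30, SE 0.41, edgeR adjusted p = 0.00612). The call held when each library was left out in turn (adjusted p = 0.000604 to 0.0477). Akna stood at 403 and 389 CPM in the WT libraries, against 282 and 338 CPM in the Setd2-CD4 cre libraries (-0.35, SE 0.12, edgeR adjusted p = 0.0607). That value passed with library totals (-0.50, adjusted p = 0.0236), with upper-quartile factors (-0.46, 0.0240), without a filter on low counts (0.0421), on both FPKM scales (0.0319 each) and without Setd2-CD4 cre 24 (-0.48, 0.000108). The B cell marker sum given above was likewise higher in both Setd2-CD4 cre libraries, and its part in this result was not tested.

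**Figure D2:**
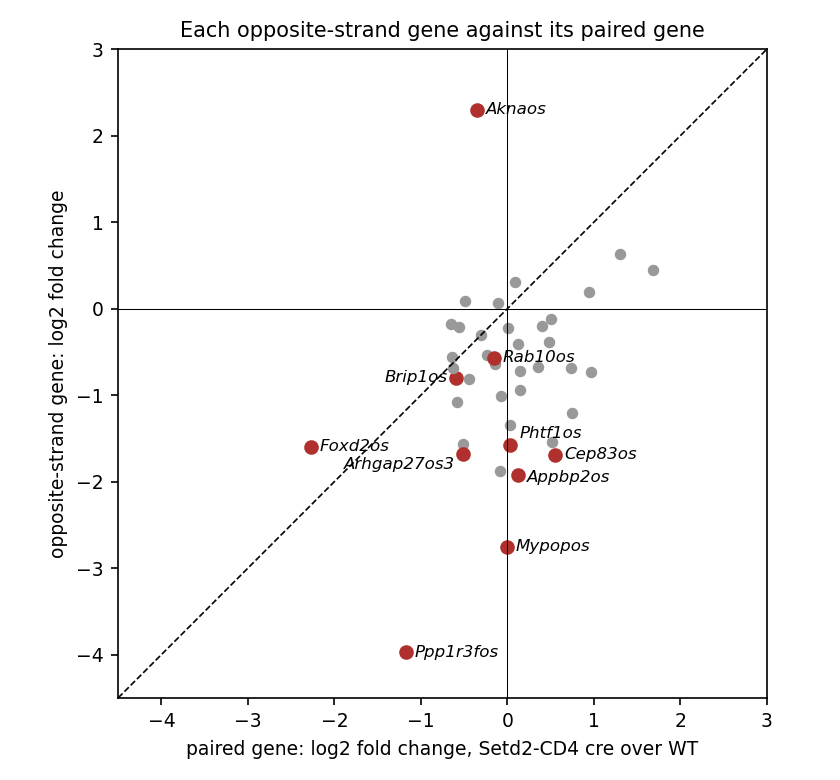
Log2 fold change (Setd2-CD4 cre over WT) of each opposite-strand gene against that of its paired gene. Shown are the 41 pairs in which both passed the filter on low counts and were tested. Red points are opposite-strand genes past the threshold, the dashed line marks equal change, and 32 of the 41 points lie below it.

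The opposite-strand gene had the lower fold change of the pair in 32 of the 41 pairs with both genes tested, and the median difference was -0.67 on the log2 scale. Signs were the same in 22 pairs and opposite in 19, with Ccdc142os among the 19 on the Ccdc142 row used. Across these 41 pairs the fold changes had a Pearson r of 0.305 and a Spearman rho of 0.174, given as a description because pairs share the 4 libraries. The 41 pairs had passed the filter on low counts, which can keep a gene through the group in which it is high. Without that filter the median difference was -0.54 over 60 pairs, and 34 had the same sign. Counted by calls over all 61 pairs, both genes fell in 3 (Brip1os, Arhgap27os3 and Ppp1r3fos with their partners). The opposite-strand gene alone fell in 5, and the paired gene alone was called in 21, of which 13 rose and 8 fell. These 21 include pairs whose opposite-strand gene was not tested and could not be called (Atcayos, Hopxos, Med9os, Tspan32os, Vax2os and Zeb2os). Arhgap27 counts among the 3 through Arhgap27os3 and again among the 8 through Arhgap27os2. Calls were common in the whole table, with 14.5% of all genes tested lower and 16.2% higher. An exact two-sided permutation test of 2 libraries against 2 cannot give a p below 0.333, and the difference within single pairs was not tested by other means.

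The level per length of the opposite-strand gene was usually a small part of that of its paired gene. FPKM, the authors' level per transcript length and library depth, was lower for the opposite-strand gene in most pairs, with a median of 10.6% of the paired gene in WT over the 60 pairs whose partner was detected in WT. It was higher than the partner in 12 pairs and under 10% of it in 29. Mypopos had 496% and 496% of the FPKM of Mypop in the WT libraries and 41.5% and 112% in Setd2-CD4 cre, so it outweighed Mypop in WT and not in Setd2-CD4 cre 22. Arhgap27os3 had 105% and 109% of the FPKM of Arhgap27 in WT, against 36.7% and 57.7% in Setd2-CD4 cre. Cep83os had 18.98% and 21.1% of the FPKM of Cep83 in WT, against 2.65% and 6.03% in Setd2-CD4 cre. The genotypes did not overlap in these 3 ratios. They did not overlap either in the FPKM of Brip1os relative to Brip1, where both genes fell, but lay closer, with 142% and 144% in WT against 137% and 114%. Over all pairs, the ratio was lower in both Setd2-CD4 cre libraries than in both WT libraries in 30, higher in 5 and overlapping in 23, and in 3 the paired gene was at 0 in a library. Such separation is common with 2 libraries per genotype. For the CPM of single genes, 34.5% of all rows with a summed count of 10 or more lay below and 33.5% above. No such share was computed for ratios of other gene pairs.

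**Figure D3:**
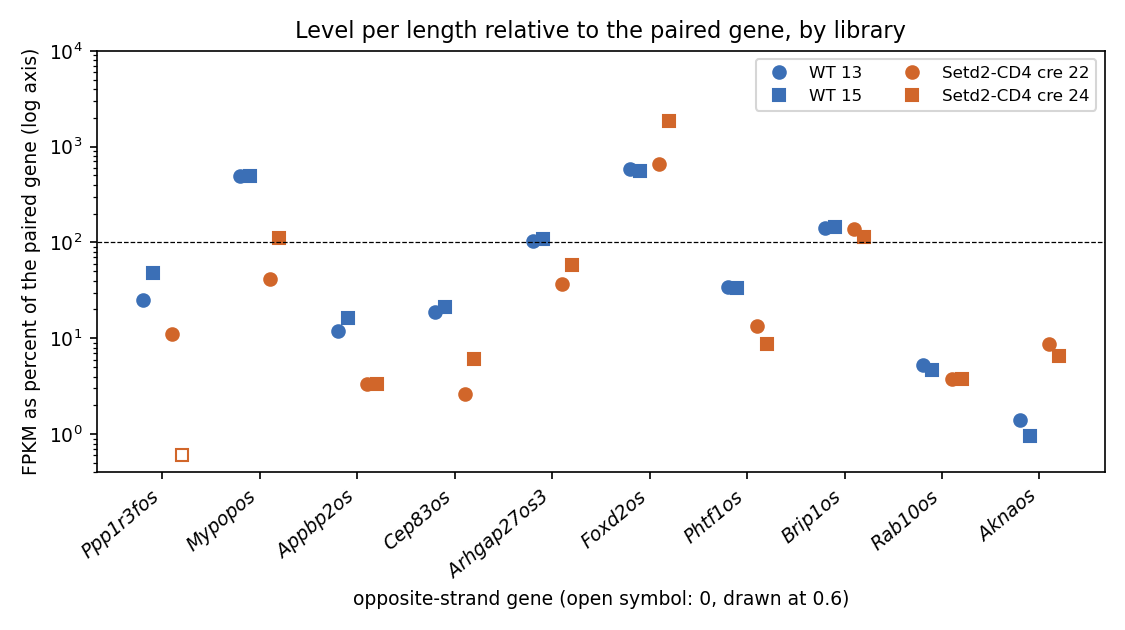
FPKM of each called opposite-strand gene as a percent of the FPKM of its paired gene (log axis), 1 symbol per library, with the dashed line at 100%. The ratio is lower in both Setd2-CD4 cre libraries for 8 of the genes and higher for Aknaos and Foxd2os.

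Falls occurred in each of 4 arrangements (divergent, overlapping starts, inside and overlapping ends). Of the 37 head-to-head genes, 26 were tested, 6 fell and none rose, and 21 had both Setd2-CD4 cre libraries below both WT libraries. Of the other 24, 15 were tested, 3 fell and 1 rose, and 9 lay below. The median log2 fold change with every gene kept was -0.54 for the first and -0.24 for the second. Among the 22 genes with no exon overlap with their partner, 12 were tested and 4 fell (Brip1os, Cep83os, Foxd2os and Arhgap27os3). Among the 39 with overlap, 29 were tested, 5 fell and 1 rose. For comparison, 14.5% of all genes tested were called lower and 16.2% higher. Of all rows with a summed count of 10 or more, 34.5% lay below and 33.5% above. The difference between arrangements was not tested.

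The 6 opposite-strand genes of the protein-coding class were all tested and none passed. Slc7a6os, a coding gene that faces the end of the amino acid transporter gene Slc7a6, stood at 31.8 and 35.6 CPM in the WT libraries, against 36.1 and 35.8 CPM in the Setd2-CD4 cre libraries (0.09, SE 0.14, edgeR adjusted p = 0.625). Slc7a6 stood at 63.9 and 68.6 CPM against 45.7 and 48.9 CPM and fell (-0.49, SE 0.12, edgeR adjusted p = 0.0204), a call lost without WT 13 (adjusted p = 0.102) and without WT 15 (0.196). Wdr83os, which encodes a subunit of a membrane protein chaperone complex, stood at 20.1 and 19.3 CPM in the WT libraries, against 18.6 and 22.5 CPM in the Setd2-CD4 cre libraries (0.06, SE 0.17, edgeR adjusted p = 0.801). Its partner Wdr83 did not pass either (-0.11, SE 0.20, edgeR adjusted p = 0.708). Cebpzos stood at 11.2 and 11.6 CPM in the WT libraries, against 10.8 and 9.08 CPM in the Setd2-CD4 cre libraries (-0.20, SE 0.20, edgeR adjusted p = 0.485), and Cebpz gave 52.99 and 55.7 CPM against 81.2 and 62.7 CPM (0.41, SE 0.15, adjusted p = 0.0698). The signs of Slc7a6os and Wdr83os were negative with library totals and with upper-quartile factors. With every gene kept, the median log2 fold change was 0.07 for the 6 coding genes and -0.54 for the 55 genes of other classes.

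Gimap1os, beside a gene of the GIMAP family of lymphocyte GTPases, had the highest mean CPM (not scaled by length) of the genes outside the protein-coding class that did not pass. It stood at 22.3 and 25.05 CPM in the WT libraries, against 14.2 and 18.5 CPM in the Setd2-CD4 cre libraries (-0.53, SE 0.18, edgeR adjusted p = 0.0592). The groups did not overlap, and the value passed with upper-quartile factors (adjusted p = 0.0331), library totals (0.0299), no filter on low counts (0.0414), limma-trend on log2(FPKM + 1) (0.0364) or log2(FPKM + 0.1) (0.0376), and without Setd2-CD4 cre 24 (0.00185). Gimap1 gave 77.6 and 77.7 CPM against 59.6 and 71.9 CPM (-0.24, SE 0.13, edgeR adjusted p = 0.187). Sp3os and Zfp335os, chosen after their values were seen, lay just beyond the threshold (-1.21, adjusted p = 0.0510 and -1.54, adjusted p = 0.0583), while their partners, the zinc finger genes Sp3 (0.75, adjusted p = 0.0029) and Zfp335 (0.52, adjusted p = 0.0173), rose. The 20 genes not tested had at most 21 counts in any library and 44 in all. Both Setd2-CD4 cre libraries lay below both WT libraries for 2 of them, above for 5, and the groups overlapped for 13. Of all rows with a summed count of 10 or more, 34.5% lay below and 33.5% above. These 20 genes thus showed no lean to lower levels. None passed when the filter on low counts was dropped.

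Other noncoding genes of the table were also called lower more often than higher. Of 154 tested genes of the GENCODE antisense class outside the 61, 29 were lower (18.8%) and 8 higher (5.19%), with a median log2 fold change of -0.65. Of 203 tested lincRNA genes, 51 were lower (25.1%) and 17 higher (8.37%), with a median of -0.63. Among 11671 protein-coding genes outside the 61 the shares were 14.5% and 16.8%, with a median of 0.0070. With every gene of 10 or more counts kept, the medians were -0.54, -0.49 and 0.0048, beside -0.46 for the 61. The difference between the 61 and these classes was not tested.

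**Figure D4:**
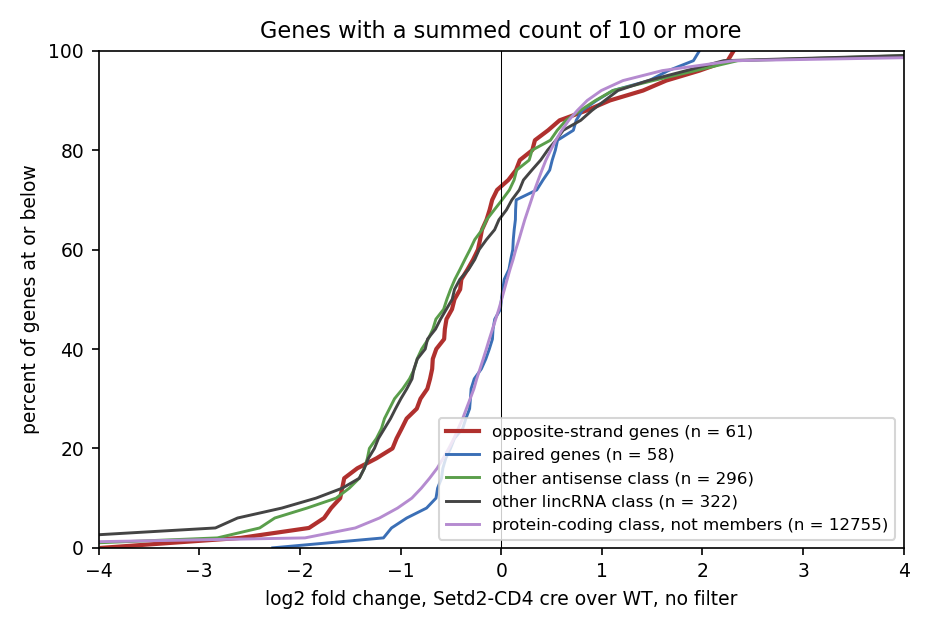
Cumulative share of genes (percent) by log2 fold change, Setd2-CD4 cre over WT, for genes with a summed count of 10 or more and no further filter. The curves of the 61 opposite-strand genes and of the other antisense and lincRNA genes lie left of those of the paired genes and of the protein-coding genes around the middle and meet them above 0, with medians of -0.46, -0.54 and -0.49 against 0.0048 for protein-coding genes.

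The machinery that ends and degrades promoter antisense RNA was detected throughout, apart from Exosc6, which had no row under that name. Of 24 tested genes of the nuclear RNA exosome and its adaptors, 5 rose and 2 fell, with a median log2 fold change of 0.06. Among them Exosc8, the gene of a core subunit, rose (0.89, edgeR adjusted p = 0.00149), as did Rbm7 (0.83, 0.00304) and Zcchc8 (0.61, 0.00962), whose products are part of the adaptor that brings such RNA to the exosome. Zcchc7 (0.69, edgeR adjusted p = 0.00722) and Papd5 (0.43, 0.032) were the remaining genes of the list that rose. Skiv2l2 of the same list did not pass (-0.14, edgeR adjusted p = 0.393), and both its Setd2-CD4 cre libraries lay below both WT libraries. Zfc3h1, the gene of an adaptor for polyadenylated nuclear RNA, fell (-0.65, edgeR adjusted p = 0.0151), and so did Exosc7 (-0.52, 0.0308). Of 28 genes of Integrator and of transcription termination, 4 rose and 2 fell, with a median of 0.08. Ints6 (1.21, edgeR adjusted p = 0.00103) and Ints12 (1.11, 0.0023) encode Integrator subunits, and Scaf8 (0.88, 0.00186) encodes a factor that prevents early polyadenylation, and all 3 rose, as did Ints8 (0.57, 0.0138). Cpsf3 (-0.43, edgeR adjusted p = 0.0447), the gene of the nuclease that cuts messenger RNA before polyadenylation, and Cstf2 (-0.49, 0.0232), the gene of a cleavage factor, fell. Shares called were 14.5% lower and 16.2% higher over all genes tested.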

How the data were processed

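Per the file headers, the deposited table gives for each library a raw count and an FPKM value for every gene, both computed by the authors. The counts are whole numbers. Bowtie2, RSEM, GRCm38.p6 and mm10 are named in the submitters' processing notes, with no versions or roles. How shared reads were handled, and whether the counts are rounded RSEM estimates, is not stated there.

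The raw counts went unaltered into edgeR 4.0.16, run in R 4.3.3 (TMM factors 0.934 to 1.06, filterByExpr by genotype, robust quasi-likelihood fit, Benjamini-Hochberg over 12927 genes). Standard errors were taken from the fold change and the test's F statistic. Fold changes have WT as the denominator. DESeq2 1.42.0 and limma 3.58.1 gave alternatives. Coordinates and classes come from GENCODE M21 (GRCm38), and promoter windows from RefSeq (GRCm38.p6). Only the partner symbol of Ccdc142os had 2 rows. Both Ccdc142 rows lie on chromosome 6, and the one with the lower identifier was used (log2 fold change 0.15). The other row had -0.72, the same sign as Ccdc142os (-0.95), and Ccdc142os extends beyond its end.

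Replicates differed by more than counting noise (chi-square per degree of freedom of 8.27 in WT and 17.4 in Setd2-CD4 cre). The fit was tested on simulated data.

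The genes, lists and tests were chosen with earlier results of these data known. Named in full are Mypopos, the genes past the threshold, the 4 of highest mean CPM that were not, and the 3 pairs with the largest difference in fold change where the opposite-strand gene averaged at least 1 CPM. Sp3os and Zfp335os were chosen after their values were seen. From the exosome list and the Integrator and termination list, the genes past the threshold are named because they passed, with Skiv2l2 beside them. Further genes are named where their place, pair or role is described. The rest are given by range or count.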

Additional observations from a re-analysis of the deposited data

How the results depend on the processing

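No paired analysis was possible because the genotypes share no replicate number. With 2 libraries per genotype, leaving 1 out leaves a lone library that is assumed to vary like the other genotype. Of the 10 called opposite-strand genes, Mypopos, Aknaos, Arhgap27os3, Brip1os, Cep83os and Foxd2os kept their calls under all 12 alternatives run.

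The median log2 fold change of all genes shifted to -0.16 with library totals and to -0.12 with upper-quartile factors. Relative to that median, the 41 opposite-strand genes tested in the main analysis lay at -0.67 there. Under the other settings these genes lay at -0.59 to -0.70, except -0.25 on the log2(FPKM + 1) scale. They had passed the main filter on low counts. With all 61 fitted, the opposite-strand median itself was -0.46, both without that filter and with DESeq2. Leaving out each library gave 5 to 12 opposite-strand genes lower, 6 to 14 paired genes higher and 3 to 14 lower. It gave medians of -0.67 to -0.45 for opposite-strand genes and -0.0663 to 0.0323 for paired genes, and differences of -0.80 to -0.57.

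With upper-quartile factors, 16 paired genes were lower and the medians were -0.79 and -0.11. With library totals, 8 paired genes were higher and 17 lower, with medians of -0.83 and -0.15. Without a filter the opposite-strand median was -0.46, the difference -0.54 and 34 pairs had the same sign. DESeq2 gave -0.46 and -0.54, and limma-voom a difference of -0.72. On log2(FPKM + 1), 17 opposite-strand genes were lower and 8 paired genes higher, with medians of -0.37 and -0.12 and a difference of -0.32. On log2(FPKM + 0.1) these were 16, 8, -0.77 and -0.15. With 50 or more summed counts, 8 paired genes were higher and 6 lower, with a paired median of -0.0778 and a difference of -0.57. Without pairs that share exons, 0 of 12 tested opposite-strand genes were higher and 4 lower, and of 20 tested paired genes 3 were higher and 5 lower. In that subset 9 pairs had the same sign, the paired median was -0.30 and the difference -0.35. Chosen after seeing the data, head-to-head pairs alone had 0 of 26 tested opposite-strand genes higher, and the other pairs alone had 3 of 15 lower. For comparison with these subsets, 14.5% of all genes tested in the main analysis were called lower and 16.2% higher. These subsets hold fewer genes by construction.

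Signs turned only for uncalled values near 0. Slc7a6os was -0.0175 with upper-quartile factors, -0.0574 with library totals, and -0.0526 and -0.0546 on log2(FPKM + 1) and log2(FPKM + 0.1). Wdr83os was -0.0505, -0.0885, -0.0895 and -0.0967 under the same settings and -0.0791 to 0.197 with each library left out. Phtf1 was -0.0761, -0.115, -0.096 and -0.114, and -0.0111 to 0.0902. Appbp2 was -0.028 with library totals and -0.0258 and -0.0276 on the FPKM scales. Mypop was 0.00047 with RLE factors and -0.172 to 0.150 with each library left out, and Wdr83 was -0.285 to 0.0637. The cause was not tested.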
